A study of Mus musculus with 12 samples.

Results

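The CCN genes encode a family of secreted matricellular proteins, and the 5 followed here, Ccn1, Ccn2, Ccn3, Ccn4 and Ccn5 (older names Cyr61, Ctgf, Nov, Wisp1 and Wisp2), were found through every probe set annotated to one of these symbols alone. These are 5 of 18193 genes with a symbol of their own. They have 10 of the 45101 probe sets on the array, 4 for Ccn1, 1 for Ccn2, 2 each for Ccn3 and Ccn4 and 1 for Ccn5, and the brightest probe set of a gene, by mean over the 12 arrays, stood for it. In 4 groups of 3 male C57BL/6 mice, 1 array per mouse, RNA of the left ventricular myocardium, cut free of the right ventricle and the atria, was measured. Mice were 7 weeks old at the first operation. The AB group carried an aortic band for 4 weeks, which raises the pressure load on the left ventricle, and its control, the sAB group, had a sham procedure and was studied at the same time. In the DB3 group the band was placed for 4 weeks and then removed, with the heart studied 3 days later, and in its control, the sDB3 group, a sham procedure was followed by the debanding operation and 3 days. No transgene or drug was involved, all groups share 1 strain and sex, and the size of the pressure gradient in single mice was not used here.

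CCN proteins are built from modules that resemble an insulin-like growth factor binding protein, a von Willebrand factor C domain, a thrombospondin repeat and, except in Ccn5, a C-terminal cystine knot. They do not form fibres but sit in the matrix, where they bind integrins, heparan sulfate proteoglycans and growth factors and so tune how cells respond to them. Ccn1 and Ccn2 are rapidly induced by stretch, serum and transforming growth factor beta, partly through the co-activator YAP with the TEAD transcription factors, and Ccn2 is widely used as a marker of cardiac fibrosis.

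Ccn1 was the single member with an entry in the RefSeq promoter table used (1 of 5, GRCm38.p6), so its start region is shown. It spans chr3:145649936-145650235 on the minus strand, 250 bases before the annotated start and 50 after it. Capitals mark, in this order, a TEAD core (GGAATG, here read on the other strand as CATTCC), a CRE core (TGACG, read as CGTCA) and a TATA box (TATAAA).
Ccn1: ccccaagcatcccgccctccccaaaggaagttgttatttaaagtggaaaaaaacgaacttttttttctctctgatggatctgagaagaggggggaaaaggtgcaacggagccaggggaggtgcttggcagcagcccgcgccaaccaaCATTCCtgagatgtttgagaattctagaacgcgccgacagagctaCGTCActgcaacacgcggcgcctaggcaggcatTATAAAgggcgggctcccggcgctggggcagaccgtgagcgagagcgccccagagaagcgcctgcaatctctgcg
With the annotated start counted as 0, the TEAD core begins at -103, the CRE core at -58 and the TATA box at -25. On both strands, the TEAD core occurs in 14.7% of the 32851 start regions of this length, the CRE core in 20.8% and the TATA box in 13.6%. An AP-1 site (TGANTCA, in 7.81% of regions) and a CArG box (in 1.63%) had no match in this window, and sequence outside it was not searched. No 2 of the searched motifs overlap in it, and a match is a description of letters, not a measured binding site.

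Values are on the log2 scale, as deposited, so that a difference of 1 is a 2-fold change of the array signal. Genes were tested where a probe set lay above log2 4 on at least 3 of the 12 arrays, which left 10435 genes, and calls are at an adjusted p below 0.05 by limma (Benjamini-Hochberg over all 10435). Ccn1, Ccn2, Ccn3 and Ccn5 lay above log2 4 on all 12 arrays, and Ccn4 did not pass. Cardiomyocyte markers were bright throughout (mean log2 signal over 7 of 7 markers 15.38 to 15.47 in AB, 15.51 to 15.54 in sAB, 15.45 to 15.49 in DB3 and 15.56 to 15.59 in sDB3). Markers of atrial muscle varied widely between single arrays, with means over 4 of 5 markers of 8.17 to 10.08 in AB, 6.19 to 7.95 in sAB, 4.96 to 10.79 in DB3 and 8.55 to 10.79 in sDB3. The fifth, Bmp10, lay below log2 4 on every array. The sAB arrays stood apart on BioC, a bacterial control transcript, at 10.15 to 10.51, against 8.28 to 8.60 on the other 9, so that for sAB this technical difference and the group cannot be told apart. AB was set against both shams for that reason, and the 2 comparisons share the AB arrays. In whole tissue, fewer cells of a type and less RNA per cell cannot be told apart.

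**Figure D1:**
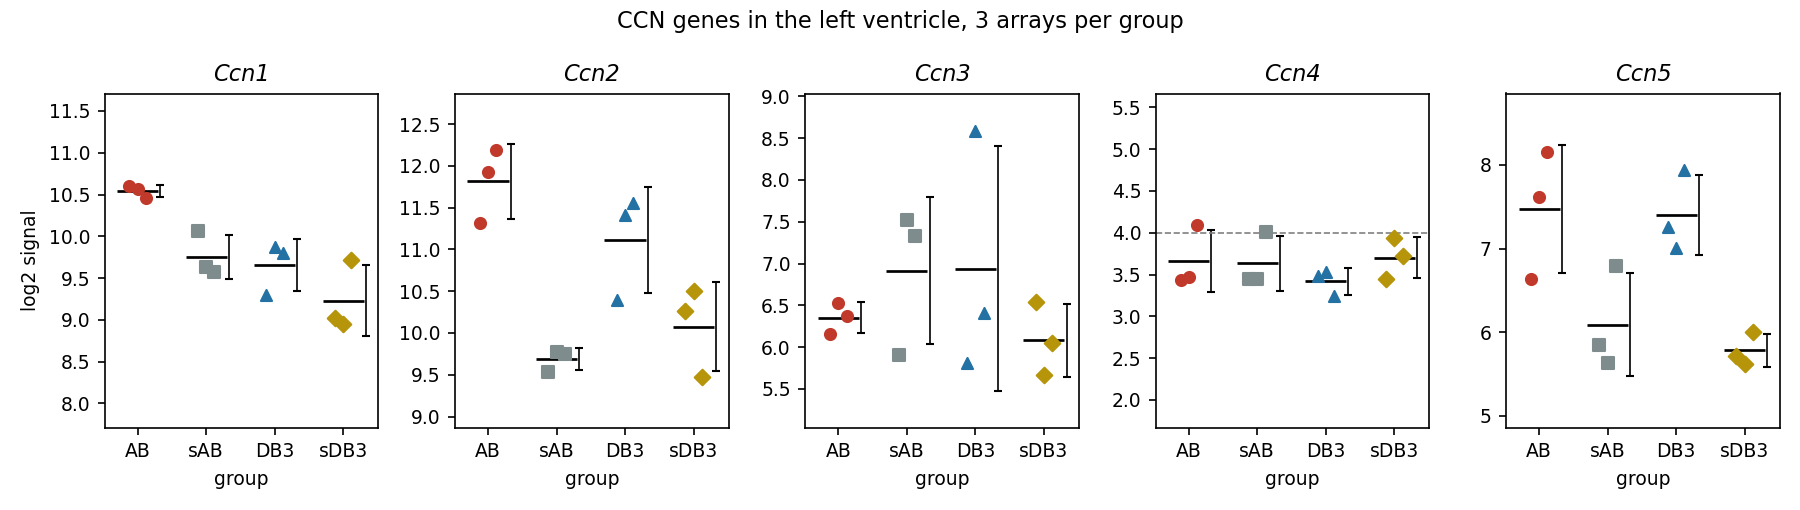
Log2 signal of the 5 CCN genes (y axis, each panel spanning 4 log2 units) on every array, by group (x axis). Points are arrays, horizontal lines are group means, bars beside them are ± 1 SD (n = 3) and the dashed line marks log2 4. The AB arrays lie highest for Ccn1, AB and DB3 lie high for Ccn2 and Ccn5, single arrays stand out for Ccn3, and Ccn4 stays near or below log2 4.

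In the banded ventricle 3 of the 5 genes, and of the 4 tested, rose. Against sAB, Ccn2 was 4.37-fold, Ccn5 2.60-fold and Ccn1 1.73-fold higher in AB, while Ccn3 did not pass and Ccn4 was too dim to be tested with the others. All 3 also rose against sDB3, by 3.33-fold for Ccn2, 3.23-fold for Ccn5 and 2.48-fold for Ccn1. The call rate over all genes was 19.7% for AB against sAB (12% higher) and 22% for AB against sDB3 (17.3% higher). After debanding, Ccn5 was higher in DB3 than in sDB3. Ccn1 was lower in DB3 than in AB, 2 groups that also differ by the second operation and 3 more days.

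Ccn1, a secreted adhesion and angiogenic protein known as an immediate early response gene, was 10.60, 10.57 and 10.46 in AB, against 10.06, 9.63 and 9.57 in sAB. All AB arrays lay above all sAB arrays, and the AB mice were closer to each other (SD 0.071) than the sAB mice (SD 0.27, n = 3 each). The log2 difference was 0.79 ± 0.22 (SE, 95% interval 0.31 to 1.26, limma adjusted p = 0.0273). This call was lost without AB replicate 1, 2 or 3 or sAB replicate 2 or 3, with adjusted p-values up to 0.0827 over the 12 leave-one-out fits. Against sDB3, where Ccn1 was 9.02, 8.95 and 9.72, the AB arrays were again higher without overlap, by 1.31 ± 0.22 (adjusted p = 0.00312). That call was kept in each of the 12 leave-one-out fits, with adjusted p-values of at most 0.0141.

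In DB3, Ccn1 was 9.30, 9.87 and 9.80, below all AB arrays. DB3 was lower than AB by a log2 difference of -0.88 ± 0.22 (95% interval -1.36 to -0.41, 0.542-fold, limma adjusted p = 0.0301), where 9.16% of all genes passed and 5.12% of all genes were lower. The call was lost without any 1 of the AB arrays or without DB3 replicate 1 or 3 (adjusted p up to 0.0992). Beside its own sham, DB3 differed by 0.43 ± 0.22 (interval -0.05 to 0.91, adjusted p = 0.239) and the arrays overlapped, with sDB3 replicate 3 above DB3 replicate 1. The order of the group means was AB 10.54, sAB 9.75, DB3 9.66 and sDB3 9.23. Of neighbours in that order, AB and sAB differed past the threshold, while DB3 against sAB (-0.09 ± 0.22, adjusted p = 0.79) and DB3 against sDB3 did not. The change of the banding effect after debanding was -0.36 ± 0.31 (interval -1.03 to 0.32, limma adjusted p = 0.513). DB3 and AB also differ by the second operation and 3 days, and sDB3 against sAB was -0.52 ± 0.22 (limma adjusted p = 0.112). The part of these in the lower DB3 level was not tested.

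The probe sets of Ccn1 disagreed in some comparisons. The brighter pair, 1416039_x_at and 1438133_a_at, gave the same calls in these comparisons, and with 1438133_a_at in place the differences were 0.89 for AB against sAB (adjusted p = 0.0122), 1.14 for AB against sDB3 (adjusted p = 0.0043) and -0.83 for DB3 against AB (adjusted p = 0.0293), all by limma. The other pair, 1442340_x_at and 1457823_at, which share 1 source accession, was dim and spread over more than 2 log2 units within DB3 and within sDB3. With them in place the differences for AB against sAB were 0.07 and -0.19 (adjusted p = 0.957 and 0.864). They had the direction of the brighter pair in AB against sDB3, at 0.47 and 0.33 (limma adjusted p = 0.65 and 0.741). The same held in DB3 against AB, at -0.75 and -0.91 (limma adjusted p = 0.531 and 0.423), though neither comparison passed with them. Where the 4 probe sets were averaged, AB against sAB was 0.39 (adjusted p = 0.534) and AB against sDB3 0.81 (adjusted p = 0.166). DB3 against AB was then -0.84 (limma adjusted p = 0.221). The ending _x_at is Affymetrix's mark for probe sets with probes that can match other sequences too, and it applies to the probe set that stands for Ccn1.

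**Figure D2:**
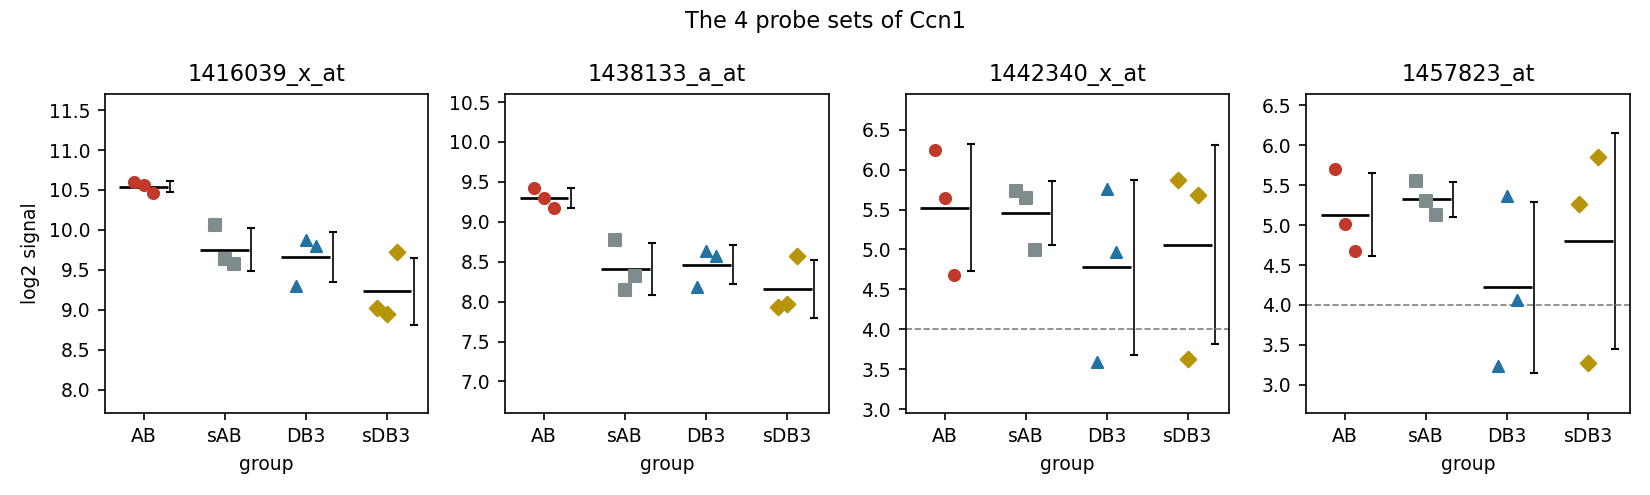
Log2 signal (y axis, each panel spanning 4 log2 units) of the 4 probe sets of Ccn1 on every array, by group (x axis), with group means, ± 1 SD (n = 3) and log2 4 dashed. The 2 brighter probe sets place all AB arrays above all others, and the 2 dim ones scatter across the dashed line in DB3 and sDB3 with no such order.

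Ccn2, connective tissue growth factor, which promotes matrix production by fibroblasts and is made by cardiomyocytes and fibroblasts alike, was 11.32, 11.93 and 12.19 in AB, against 9.53, 9.77 and 9.75 in sAB. All AB arrays lay above all sAB arrays, and no tested member had a larger difference there. The log2 difference was 2.13 ± 0.34 (95% interval 1.38 to 2.88, limma adjusted p = 0.00214), and the call was kept in each of the 12 leave-one-out fits (adjusted p up to 0.0119). In sDB3, Ccn2 was 10.26, 10.50 and 9.47, again below all AB arrays, with a difference of 1.74 ± 0.34 for AB against sDB3 (adjusted p = 0.00664).

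In DB3, Ccn2 was 10.39, 11.41 and 11.55, so that replicates 2 and 3 lay above all sham arrays while replicate 1 lay below sDB3 replicate 2. DB3 was 2.06-fold above sDB3 (log2 difference 1.04 ± 0.34, interval 0.29 to 1.79), which did not pass over all genes (limma adjusted p = 0.0898). It was also not separated from AB (-0.70 ± 0.34, interval -1.45 to 0.06, adjusted p = 0.238). DB3 did pass against sAB (1.43 ± 0.34, limma adjusted p = 0.0147, lost without DB3 replicate 3 at adjusted p = 0.0525), in a comparison taken up once the values were known, where 21.9% of all genes passed and 12.4% were higher. The means fell in the order AB 11.81, DB3 11.12, sDB3 10.08 and sAB 9.69, and no neighbours in that order differed past the threshold. The change of the banding effect after debanding was -1.09 ± 0.48 (interval -2.15 to -0.03, adjusted p = 0.197).

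Ccn5, the member without the cystine knot, is known in mouse hearts for effects opposed to those of Ccn2. It was 6.64, 7.62 and 8.15 in AB, against 5.84, 5.64 and 6.79 in sAB. The groups overlapped at 1 pair of arrays, AB replicate 1 and sAB replicate 3. The log2 difference was 1.38 ± 0.40 (95% interval 0.50 to 2.26, limma adjusted p = 0.0335), and it did not pass without AB replicate 2 or 3 or sAB replicate 1 or 2 (adjusted p up to 0.126). Against sDB3, at 5.71, 5.62 and 6.01, all AB arrays were higher, by 1.69 ± 0.40 (adjusted p = 0.0146, lost without AB replicate 2 or 3 at up to 0.0584).

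In DB3, Ccn5 was 7.26, 7.01 and 7.94, above every array of both shams. It was 3.08-fold above sDB3 (log2 difference 1.62 ± 0.40, interval 0.75 to 2.50, limma adjusted p = 0.0422), and it was the single member called there (1 of 4 tested, where 6.36% of all genes passed, 5.37% higher). This call lay close to the threshold: it was lost in 9 of 12 leave-one-out fits, those without AB replicate 2, sAB replicate 1 or 2 or any 1 DB3 or sDB3 array, with adjusted p-values up to 0.104. The difference itself ranged from 1.35 to 1.82 over the 12 fits. DB3 and AB differed by -0.07 ± 0.40 (interval -0.94 to 0.81, adjusted p = 0.942), an interval that still allows a change of nearly 1 log2 unit either way. The means stood at AB 7.47, DB3 7.40, sAB 6.09 and sDB3 5.78, and of the neighbours only DB3 and sAB differed past the threshold (1.31 ± 0.40, adjusted p = 0.0389, lost in 6 of 12 leave-one-out fits).

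**Figure D3:**
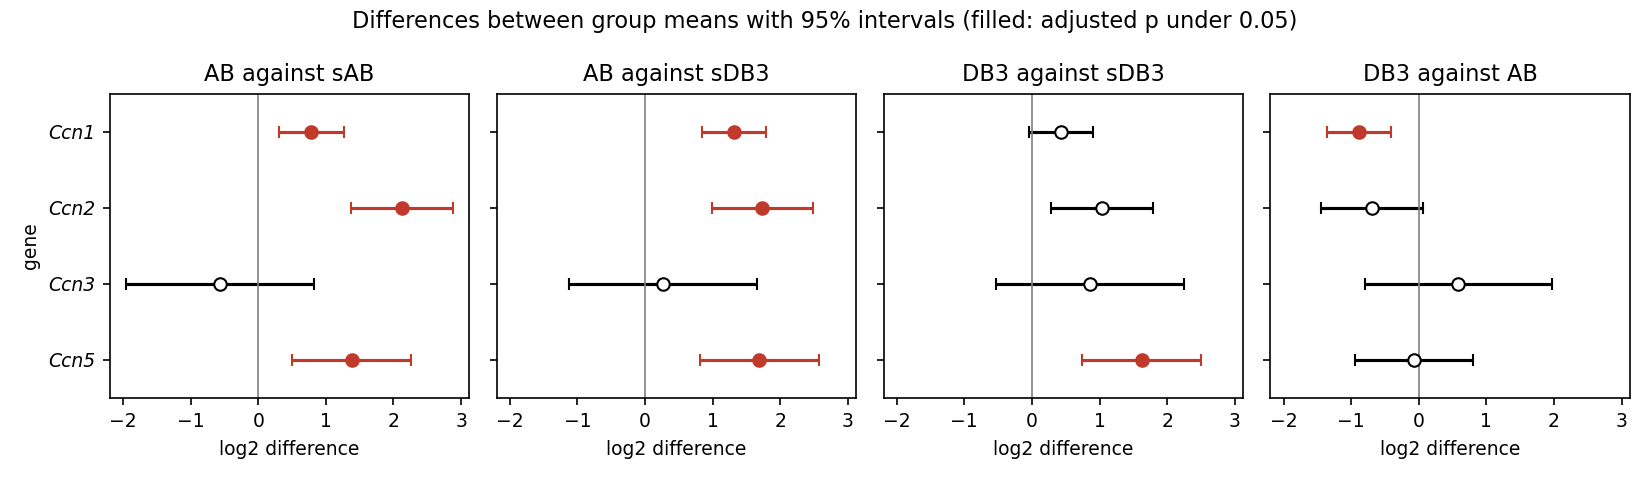
Log2 differences between group means (x axis) of the 4 tested CCN genes (y axis) in 4 comparisons, first-named group minus second, with 95% intervals from limma. Filled points passed an adjusted p of 0.05. Ccn1, Ccn2 and Ccn5 are filled in both comparisons of AB with a sham, Ccn5 alone in DB3 against sDB3, and Ccn1 alone, on the negative side, in DB3 against AB.

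Ccn3, a member known to bind Notch1 and to restrain growth in several cell types, did not pass in any comparison. It was 6.16, 6.53 and 6.37 in AB, against 5.90, 7.52 and 7.33 in sAB, and 5.81, 8.59 and 6.41 in DB3, against 6.54, 5.67 and 6.04 in sDB3. Single mice set its spread, as DB3 replicate 2 lay far above the other DB3 arrays and 2 of the 3 sAB arrays lay above every AB array. The log2 difference was -0.56 ± 0.63 for AB against sAB (interval -1.95 to 0.82, limma adjusted p = 0.571) and 0.86 ± 0.63 for DB3 against sDB3 (interval -0.53 to 2.24, adjusted p = 0.42). Without DB3 replicate 2 the second was 0.03 (adjusted p = 0.978). The other Ccn3 probe set, 1426851_a_at, was likewise highest on DB3 replicate 2, at 7.87.

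Ccn4, first described as a target of Wnt1 signalling, stayed below log2 4 on 10 of 12 arrays by its brighter probe set and on 11 of 12 by the other. The brighter one was 3.43, 3.47 and 4.09 in AB, against 3.44, 3.45 and 4.01 in sAB, and 3.49, 3.54 and 3.24 in DB3, against 3.45, 3.93 and 3.73 in sDB3. The arrays above log2 4 were AB replicate 3 and sAB replicate 3. At this signal, near the background of the array, its differences between groups were 0.03 for AB against sAB and -0.28 for DB3 against sDB3, and a change of this gene was not detectable. In a limma fit without the filter on dim probe sets they had SEs of 0.23 and adjusted p-values of 1 and 0.577, and those of the other probe set were -0.30 ± 0.36 (adjusted p = 0.594) and 0.00035 ± 0.36 (adjusted p = 1). Ccn6, the remaining gene of the family, has 1 probe set, at 2.23 to 2.24 on all arrays.

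Over the 4 tested members, limma called 3 for AB against sAB, 3 for AB against sDB3, 1 each for DB3 against sDB3 and DB3 against AB, and 0 for sDB3 against sAB, where 17.8% of all genes passed. In the comparison of the shams, 1 member, Ccn1, had an unadjusted p under 0.05 (-0.52 ± 0.22, limma adjusted p = 0.112), and without sDB3 replicate 3 it passed (-0.77, adjusted p = 0.0199). Arrays did not overlap for 2 of the 4 between AB and sAB (42.1% of all genes), for 3 between AB and sDB3 (43%) and for 1 between DB3 and sDB3 (28.1%). They did not overlap for 1 between DB3 and AB (32.3%), for 2 between DB3 and sAB (38.6%) and for 0 between the shams (36.9%). The change of effect, DB3 against sDB3 minus AB against sAB, passed by limma for 0 of 4 members, 1 of them, Ccn2, with an unadjusted p under 0.05, and for 6.04% of all genes. An F test over the 4 groups passed for Ccn1 (adjusted p = 0.00672), Ccn2 (0.00393) and Ccn5 (0.0126) and not for Ccn3 (0.525), where 37.2% of all genes passed by limma. An exact permutation test of 3 against 3 mice cannot give a p below 0.1, so these calls rest on the spread that limma pools over groups and genes.

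The genes whose levels over the 12 arrays lay closest to each member were found by the root-mean-square difference of mean-centred log2 values, with all genes tested as candidates. Closest to Ccn2 was Nppa, which encodes atrial natriuretic peptide, a hallmark of ventricular load (root-mean-square difference 0.328 log2 units, where Ccn2 itself had an SD of 0.967 over the arrays). Nppa was 14.90, 15.19 and 15.21 in AB, against 12.64, 12.77 and 12.71 in sAB, and 13.56, 13.99 and 14.29 in DB3, against 12.93, 13.11 and 13.06 in sDB3. Like Ccn2 it was lowest in DB3 on replicate 1, but unlike Ccn2 its DB3 arrays lay above all sham arrays. Next came Svep1, a large matrix adhesion protein (0.419), Itgbl1, an integrin beta-like protein (0.427), and Fibin (0.429).

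Closest to Ccn5 were Itgbl1 (0.351) and Svep1 (0.373), both of which were also near Ccn2, then Mthfd2, a mitochondrial enzyme of one-carbon metabolism (0.394), and Igfbp6, which binds insulin-like growth factors (0.464). The SD of Ccn5 over the arrays was 0.924. Mthfd2 was 6.88, 7.20 and 7.27 in AB, against 5.83, 5.86 and 6.09 in sAB, and 7.30, 6.27 and 7.17 in DB3, against 5.60, 5.26 and 5.32 in sDB3. Since these genes were picked from all those tested for their likeness to a member over the same arrays, their levels are a description, and that they separate the same groups follows from the choice. Closest to Ccn1 were Ccdc68 (0.176), Aspn, asporin of the small leucine-rich matrix proteoglycans (0.22), Col4a4, a basement membrane collagen chain (0.232), and Zfp820 (0.244), where Ccn1 had an SD of 0.556. The differences of Ccdc68, Aspn, Col4a4 and Zfp820 were 0.69, 0.56, 0.95 and 0.50 for AB against sAB, and 0.35, 0.28, 0.28 and 0.18 for DB3 against sDB3.

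Of the transforming growth factor beta ligands, which induce CCN genes, Tgfb2 and Tgfb3 were higher in AB than in either sham while Tgfb1 passed against sAB and not against sDB3. Of 11 tested transforming growth factor beta ligands, receptors and Smads, 3 rose and 0 fell in AB against sAB, with a list median of 0.27, where the median of all genes was 0.01 and 19.7% of all genes passed. The 3 were the ligands themselves: Tgfb2 at 2.14 ± 0.20 (adjusted p = 0.000112), Tgfb1 at 0.98 ± 0.12 (adjusted p = 0.000483) and Tgfb3 at 0.93 ± 0.20 (adjusted p = 0.00974), all by limma and all kept in each of the 12 leave-one-out fits. Against sDB3, Tgfb2 differed by 2.07 and Tgfb3 by 0.95 (limma adjusted p = 0.000307 and 0.00941), while Tgfb1 differed by 0.35 (adjusted p = 0.0589) and was itself higher in sDB3 than in sAB (0.63, adjusted p = 0.00738). In DB3 against sDB3, 0 of the 11 passed (median 0.17, all genes 0.09), where 6.36% of all genes passed. Tgfb2 was 8.28, 8.95 and 9.08 in AB, against 6.31, 6.65 and 6.92 in sAB, and 7.10, 7.26 and 7.06 in DB3, against 6.64, 6.59 and 6.87 in sDB3. All AB arrays of Tgfb2 lay above all others, with replicate 3 highest and replicate 1 lowest, as for Ccn2 and Ccn5.

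Genes of the Hippo pathway and serum response factor, which act on Ccn1 and Ccn2 through YAP, TEAD and SRF, differed in number of calls between the 2 shams. Of 17 tested of 20 (Tead2 and Tead4 were dim, Stk3 was not analysed here), 3 rose and 0 fell in AB against sAB, with a median of 0.15, and 8 rose and 0 fell in AB against sDB3, with a median of 0.26 (all genes 0.11). The share of all genes called was 19.7% against sAB and 22% against sDB3, so the count against sAB was near that share. Sav1, a scaffold of the Hippo kinases, differed by 0.43 ± 0.06 (adjusted p = 0.00134), Srf by 0.33 ± 0.09 (adjusted p = 0.0318) and Wwtr1, the YAP relative TAZ, by 0.29 ± 0.07 (adjusted p = 0.0139), in AB against sAB. Sav1 did not pass against the other sham (0.08 in AB against sDB3, adjusted p = 0.383) and was itself higher in sDB3 than in sAB (0.35, adjusted p = 0.0067). Srf, Wwtr1 and Mob1a passed in AB against sDB3 (0.42, 0.56 and 0.56, limma adjusted p = 0.0123, 0.00066 and 0.00487). Mob1a did not pass in AB against sAB (0.03, limma adjusted p = 0.877). Mob1a and Wwtr1 were themselves lower in sDB3 than in sAB (-0.53 and -0.28, limma adjusted p = 0.00853 and 0.0199). The calls of Srf and Wwtr1 against sAB were lost in some leave-one-out fits (Srf without any 1 AB array or sAB replicate 1 or 2, Wwtr1 without AB replicate 2 or 3, adjusted p up to 0.118 and 0.0571). In DB3 against sDB3, 2 rose and 0 fell, Mob1a, an activator of the LATS kinases, by 0.41 ± 0.10 and Wwtr1 by 0.28 ± 0.07 (adjusted p = 0.0445 and 0.0417), in a list whose median, 0.10, was close to that of all genes, 0.09. The share of all genes called there was 6.36%. The calls of Mob1a and Wwtr1 ended in most leave-one-out fits (adjusted p up to 0.11 and 0.0996).

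Among YAP and TEAD target genes other than the CCN members, 20 of 22 were tested, and 4 rose and 1 fell in AB against sAB (median 0.22, all genes 0.01), a share near the 19.7% of all genes called there. In DB3 against sDB3, 3 rose and 0 fell (median 0.22, all genes 0.09), where 6.36% of all genes passed. Ankrd1, a stretch-responsive cardiac ankyrin repeat protein, was 14.90, 15.15 and 15.14 in AB, against 14.29, 14.10 and 14.07 in sAB, and 14.58, 14.23 and 14.43 in DB3, against 13.47, 13.81 and 13.92 in sDB3. It differed by 0.91 ± 0.13 in AB against sAB (adjusted p = 0.00127) and by 0.68 ± 0.13 in DB3 against sDB3 (adjusted p = 0.0246, up to 0.0678 without DB3 replicate 1 or 3 or sDB3 replicate 1 or 2). Crim1, a membrane protein that binds bone morphogenetic proteins, differed by 0.44 ± 0.11 (adjusted p = 0.0169) and 0.53 ± 0.11 (adjusted p = 0.0275) in the same comparisons, calls that ended at up to 0.0571 without AB replicate 2 or 3 or sAB replicate 1 or 2 and at up to 0.0761 without DB3 replicate 1 or 2 or sDB3 replicate 2. Against sDB3, Ankrd1 passed in AB (1.33, adjusted p = 0.000323) and Crim1 did not (0.23, adjusted p = 0.151). The remaining calls of AB against sAB were Tgfb2, which is also on the list above, Amotl1, an angiomotin that binds YAP, at 0.35, and F3, tissue factor, at -0.28.

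Among matrix and contractile genes that respond to transforming growth factor beta, several matrix genes rose with Ccn2 under the band. The contractile genes Acta2 and Tagln did not pass in AB against sAB (0.14 and 0.18, limma adjusted p = 0.776 and 0.838). Of 15 tested, 4 rose and 0 fell in AB against sAB (median 0.84), and 1 rose and 0 fell in DB3 against sDB3 (median 0.17). The shares of all genes called were 19.7% and 6.36%, and the DB3 count was near its share. Ltbp2, a latent transforming growth factor beta binding protein, was 6.83, 7.21 and 8.14 in AB, against 4.41, 5.33 and 5.33 in sAB. Postn, periostin, was 11.92, 12.75 and 13.08 in AB, against 10.22, 10.74 and 11.06 in sAB, and 10.03, 11.19 and 10.80 in DB3, against 10.24, 10.40 and 10.26 in sDB3. Their differences were 2.37 and 1.91 (limma adjusted p = 0.00118 and 0.00351), and Col1a1, a fibrillar collagen chain, differed by 1.76 (adjusted p = 0.025, lost without AB replicate 3 or sAB replicate 1 or 2 at up to 0.0995). Against sDB3, Ltbp2 and Postn passed in AB (2.81 and 2.28, adjusted p = 0.000735 and 0.0018), and Col1a1 did not (1.19, adjusted p = 0.0958). All AB arrays of Ltbp2 and Postn lay above all sAB arrays, whereas the DB3 arrays of Postn reached below the sDB3 arrays. Tgfbi, a secreted adhesion protein, was the DB3 call, at 0.998 ± 0.18 (limma adjusted p = 0.0204, up to 0.0509 without DB3 replicate 2 or 3). The change of effect passed for 0 of the 15 genes.

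Some receptors and binding partners of CCN proteins rose. Of 12 tested of 16, 5 rose and 0 fell in AB against sAB (median 0.26), and 2 rose and 1 fell in DB3 against sDB3 (median 0.23). Over all genes, 19.7% passed in the first comparison and 6.36% in the second. In AB against sDB3, 6 of the 12 rose and 0 fell (median 0.41), where 22% of all genes passed. Igf2r, 1 of the 5 that rose against sAB, did not pass against sDB3 (0.005, limma adjusted p = 0.972). It was itself higher in sDB3 than in sAB (0.32, limma adjusted p = 0.0253). Itgb3, which pairs with Itgav to bind CCN proteins, lay below log2 4 on every array. Itga5, the fibronectin receptor subunit, was 8.93, 9.10 and 8.96 in AB, against 6.95, 6.80 and 7.12 in sAB, and 8.53, 8.40 and 8.32 in DB3, against 8.21, 8.48 and 8.16 in sDB3. The sAB arrays lay at least 1 log2 unit below all others for this gene, the split that BioC also shows. Itga5 passed in AB against sDB3 as well, by a smaller difference (0.71, limma adjusted p = 0.00206). Itgb5, a partner of Itgav, was 10.94, 11.25 and 11.46 in AB, against 10.42, 10.58 and 10.53 in sAB, and 11.11, 10.83 and 11.16 in DB3, against 10.12, 10.25 and 10.37 in sDB3. Like Ccn5 it was higher in DB3 against sDB3, by 0.79 ± 0.13 (limma adjusted p = 0.0161), without overlap of the arrays. Lrp1, an endocytic receptor of Ccn2, differed by 0.67 ± 0.16 in AB against sAB (adjusted p = 0.016, lost without AB replicate 2 or 3 at up to 0.0674). Over 21 settings of the analysis this difference ran from 0.27 to 0.83, and the call was lost in 4 of them. Against sDB3, Itgb5 and Lrp1 passed in AB (0.97 and 0.56, limma adjusted p = 0.00121 and 0.0327). Vegfa, a growth factor that Ccn2 binds, was the gene that fell in DB3 against sDB3, by -0.57 ± 0.14 (adjusted p = 0.0423, lost in 10 of 12 leave-one-out fits at up to 0.108).

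**Figure D4:**
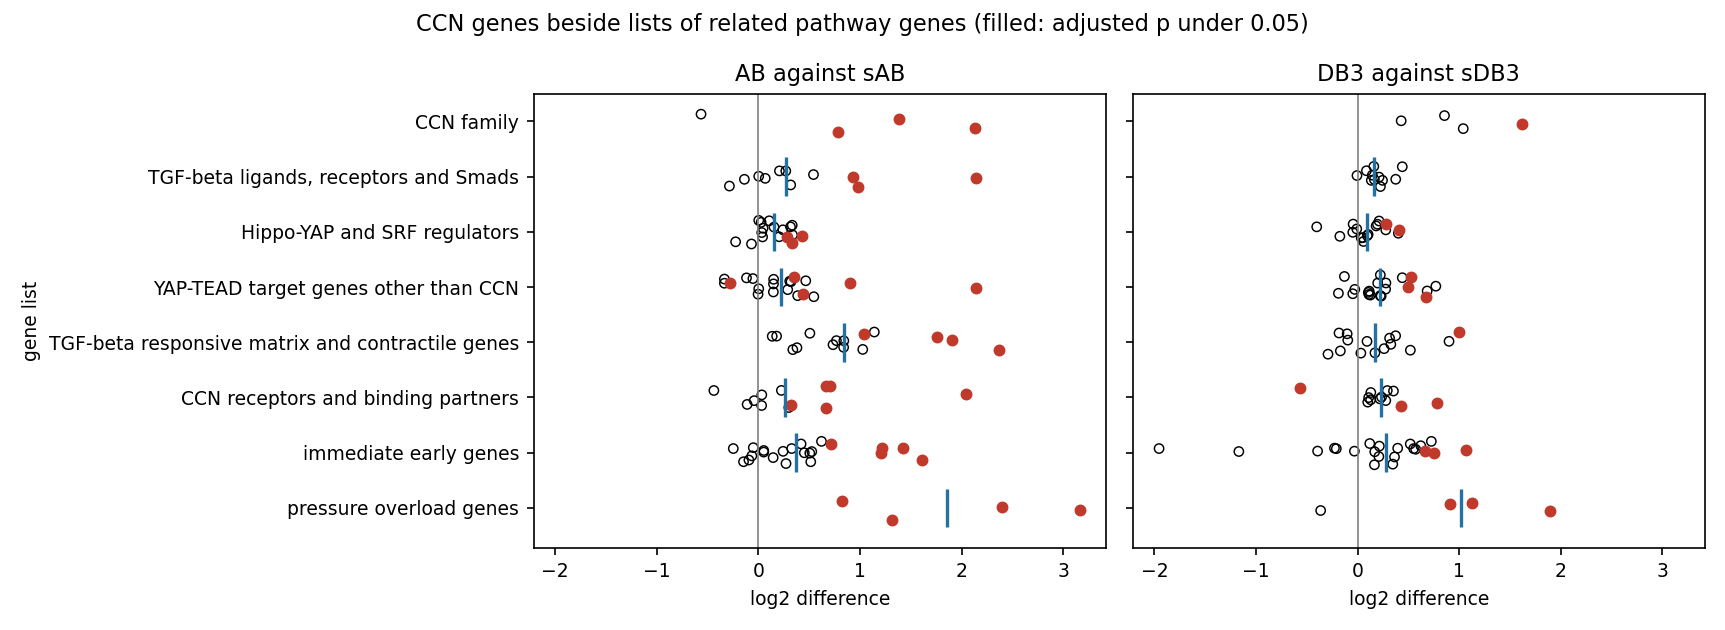
Log2 differences (x axis) of the tested genes of each list (y axis), with AB against sAB on the left and DB3 against sDB3 on the right. Points are genes, filled where the adjusted p was below 0.05, and vertical bars are list medians (none for the CCN family). The matrix and contractile genes have a median of 0.84 on the left and 0.17 on the right, and the pressure overload genes 1.85 and 1.02.

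Classical load markers were called alongside the CCN genes. Myh7, slow myosin heavy chain, Nppa, Nppb and Acta1 all rose in AB against sAB (4 of 4, median 1.85), and 3 of the 4 rose in DB3 against sDB3 (median 1.02), where 19.7% and 6.36% of all genes passed. The exception was Nppb, at -0.36 in DB3 against sDB3 (limma adjusted p = 0.255). In DB3 against AB, 3 of the 4 fell, Nppb among them at -1.80 (limma adjusted p = 0.000826), where 9.16% of all genes passed. Nppa was 0.91 log2 units higher in DB3 than in sDB3 (adjusted p = 0.0171) and Ccn2 1.04 (adjusted p = 0.0898), with SEs of 0.16 and 0.34.

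Fibroblast markers had mean log2 signals over 9 of 9 markers of 10.88 to 11.23 in AB, against 10.44 to 11.18 in sAB, and 10.49 to 10.87 in DB3, against 10.47 to 10.52 in sDB3. Of the 9, 2 rose and 0 fell in AB against sAB and likewise for DB3 against sDB3, and none was dim. Over all genes 19.7% and 6.36% passed in these comparisons, so the count in AB against sAB was near that share. Smooth muscle and pericyte markers (10 of 10) ranged over 9.94 to 10.11 in AB, against 9.52 to 9.91 in sAB, and over 9.79 to 10.38 in DB3, against 9.70 to 10.10 in sDB3. Endothelial markers (9 of 9) were at 9.43 to 9.53 in AB, against 9.21 to 9.30 in sAB, and at 9.17 to 9.38 in DB3, against 9.11 to 9.22 in sDB3. Macrophage markers (10 of 10) were at 8.49 to 8.63 in AB, against 8.41 to 9.33 in sAB, whose replicate 3 was the highest array. In DB3 they were at 8.43 to 8.48, against 8.31 to 8.49 in sDB3. Ccn2 was lowest on the array lowest for fibroblast markers in 3 of 4 groups, and likewise for macrophage markers in 3 of 4. It shared the whole order with each list in 1 of 4. Ccn5 shared the highest array with fibroblast markers in 2 of 4 groups and with macrophage markers in 3 of 4. The part of these cell types in the CCN differences was not tested. For RNA integrity, the 3' probe set of Actb exceeded the 5' one by 1.02 to 1.13 log2 units in AB, against 1.20 to 1.26 in sAB, and 1.11 to 1.32 in DB3, against 1.20 to 1.25 in sDB3, and its part was not tested.

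Within groups the members did not order the mice alike. In AB, Ccn2 and Ccn5 were both lowest in replicate 1 and highest in replicate 3, while Ccn1 had the opposite order over a narrow range. In 2 of the 4 groups Ccn1 and Ccn2 ranked the 3 mice in opposite orders, and in 0 of 4 in the same order. In sDB3, the array with the highest Ccn1, replicate 3, had the lowest Ccn2. Ccn1 ranked the mice as the mean of 22 tested immediate early genes did in 3 of 4 groups, sAB being the exception. It was picked out as the closest match by whole order among all pairs of members, and of members with lists, that were compared. With 3 mice per group such orders can match by chance, and the likeness was not tested. The immediate early gene mean was 8.27, 8.005 and 7.69 in AB, against 7.33, 7.72 and 7.59 in sAB, and 7.46, 8.17 and 7.83 in DB3, against 7.69, 7.53 and 7.77 in sDB3. Of the 22 genes, 5 rose and 0 fell in AB against sAB, a share near the 19.7% of all genes called there, led by Egr3, Egr2 and Myc (1.61, 1.42 and 1.21, adjusted p = 0.0289, 0.000437 and 0.00054), and 3 rose and 0 fell in DB3 against sDB3, led by Klf2 and Klf6 (1.07 and 0.75, adjusted p = 0.0498 and 0.0249). The other AB calls, Junb and Jund, did not pass against sDB3 (0.35 and 0.12, limma adjusted p = 0.473 and 0.635), whereas Egr3, Egr2 and Myc did (2.13, 1.63 and 1.33, adjusted p = 0.00888, 0.000374 and 0.000522). Against sAB, Egr3 was lost without AB replicate 2 or 3 or sAB replicate 1 or 3 (adjusted p up to 0.107). In DB3 against sDB3, where 6.36% of all genes passed, Klf2 was lost in 10 of 12 and Klf6 in 3 of 12 leave-one-out fits (adjusted p up to 0.132 and 0.0638).

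Ccn3 was lowest on the array with the lowest fibroblast marker level in 4 of 4 groups, and ranked all 3 arrays as those markers did in 2 of 4. The whole order was not particular to fibroblast markers, since immediate early genes shared it in 2 of 4 groups and the lowest array in 3. Ventricular cardiomyocyte markers ranked the arrays opposite to Ccn3 in 3 of 4 groups. With macrophage markers it shared the lowest array in 3 of 4 groups and the whole order in 1. With smooth muscle and pericyte markers it shared the highest array in 3 of 4 groups, the lowest in 1 and the whole order in 0. DB3 replicate 2, where Ccn3 stood out at 8.59, had the highest smooth muscle level of all 12 arrays, 10.38. It also had Cnn1, a smooth muscle calponin, at 7.17, against 4.45 to 5.92 on the other arrays, and Tagln, transgelin, at 10.23. Myh11 and Acta2 were likewise highest there among the DB3 arrays, and Cspg4 and Notch3 lay between. Rgs5, Pdgfrb, Kcnj8 and Abcc9 of the same list were instead lowest there within DB3, at 13.70, 11.25, 9.36 and 13.13. The atrial marker mean of DB3 replicate 2 was 10.79, level with sDB3 replicate 2, where Ccn3 was at its lowest of all arrays, 5.67. The part of RNA from these cell types in the Ccn3 values was not tested.

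**Figure D5:**
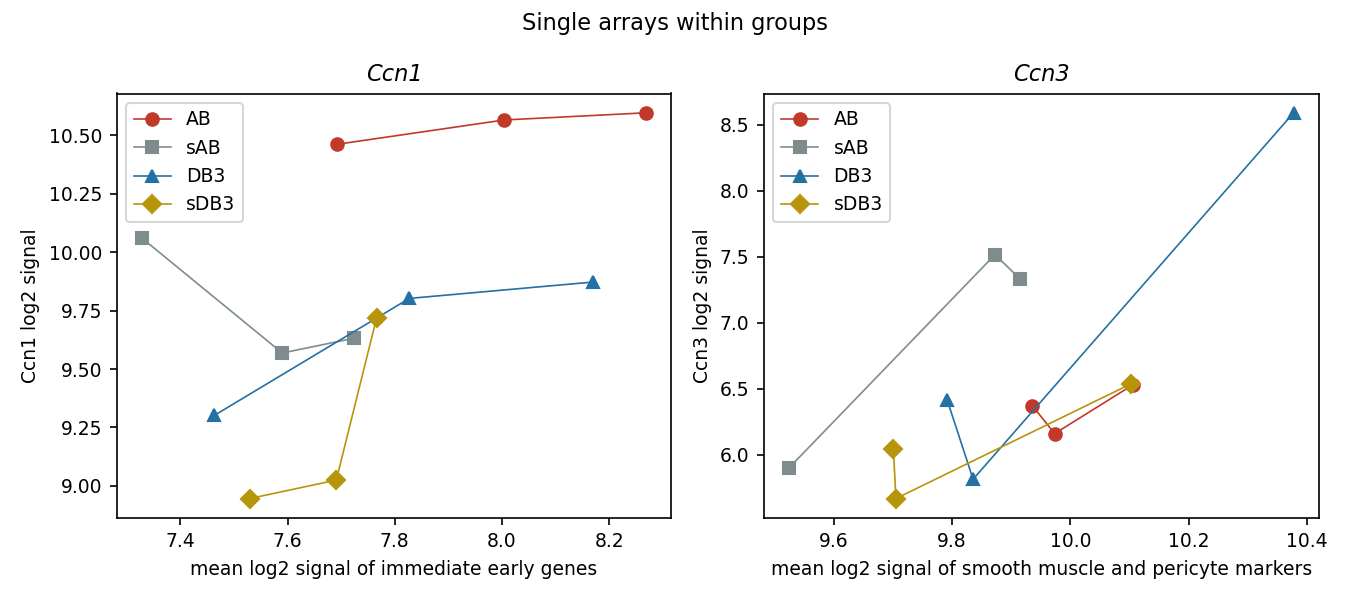
Ccn1 log2 signal against the mean log2 signal of 22 immediate early genes (left) and Ccn3 log2 signal against that of 10 smooth muscle and pericyte markers (right), 1 point per array, with lines joining the 3 arrays of a group. Ccn1 ranks with the immediate early genes in 3 of 4 groups, and DB3 replicate 2 stands alone at the upper right for Ccn3.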

How the data were processed

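The authors deposited log2 signals per probe set for 12 arrays, made with GCRMA (per the submitters' processing notes). The sources used here give neither the version and settings of GCRMA nor a genome build. Depth in the sense of reads does not apply, and the 3 arrays per group limit precision. Names came from the platform annotation of the probe sets (34945 with 1 symbol, 932 with several, 9160 with none, 64 controls), and symbols were updated by gene ID through RefSeq (34741 found). A single limma model (version 3.58.1, R 4.3.3, moderated, 8 residual and 2.68 prior degrees of freedom) held all groups, since the series description names an analysis of variance run gene by gene. Arrays are of separate mice, per the series description, and replicate numbers follow accession order and pair no mice. Members, lists and comparisons were chosen with earlier results of these data known. Named genes are the members, the 4 nearest genes of each member whose group means span at least 1 log2 unit, and up to 3 called genes per list in AB against sAB and 2 in DB3 against sDB3, those with the largest differences. Amotl1, F3, Junb, Jund, Egr1, Igf2r, Cnn1, Tagln and the other smooth muscle and pericyte markers were named after their values were seen. The fit was tested on simulated data. Alternatives were other dim filters, probe set choices, scalings, moderation, fits of only the groups compared and leaving out each array.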

Additional observations from a re-analysis of the deposited data

How the results depend on the processing

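Over 12 leave-one-out fits the number of members called was 1 to 3 for AB against sAB, 0 to 1 for DB3 against sDB3, 2 to 3 in AB against sDB3, 0 to 1 in DB3 against AB, 0 to 1 in sDB3 against sAB and 0 for the difference of effects. Without the dim filter it was 1 for AB against sAB, 0 for DB3 against sDB3 and 0 in DB3 against AB, and the unmoderated analysis of variance gave 1, 0 and 0. In DB3 against sDB3 it was also 0 after quantile normalization, after centring on the median of the genes tested (added after seeing the data, and shifting differences there by -0.13 and in AB against sDB3 by -0.15) and in a fit of only the groups compared. The mean of the probe sets of a gene gave 0 in DB3 against AB. Ccn2 kept its calls against sAB and sDB3 in AB under every alternative run, with differences of 1.94 to 2.37 and 1.43 to 1.98. Differences that turned sign had none called in the main setting except Ccn1 in AB against sAB, at -0.19 with probe set 1457823_at. The others were Ccn1 in DB3 against sDB3 (-0.032 with the mean of its probe sets, -0.28 and -0.58 with 1442340_x_at and 1457823_at) and in DB3 against sAB (0.054 with 1438133_a_at, -0.20 to 0.084 without 1 array). Ccn3 in DB3 against sAB turned to -0.13 (mean of probe sets), -0.29 (1426851_a_at) and -0.00529 (quantile), from -0.80 to 0.59 without 1 array, and in DB3 against AB ran from -0.24 to 1.15. Ccn5 ran from -0.48 to 0.27 in DB3 against AB, -0.17 to 0.58 in the difference of effects and -0.54 to 0.042 in sDB3 against sAB, and Zfp820 from -0.12 to 0.47 in DB3 against sDB3. The cause was not tested. No paired analysis was possible because the labels give no replicate numbers shared between groups. Signals near the array's background, as for Ccn4, allow no order.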

Other observations

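Egr1, an immediate early transcription factor singled out after its values were seen, was 10.89, 9.11 and 9.13 in AB, against 9.66, 8.82 and 8.78 in sAB, and 8.79, 8.47 and 7.76 in DB3, against 8.24, 7.23 and 10.24 in sDB3. Its highest array was that of Ccn1 in 3 of 4 groups.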
